A study of Mus musculus with 2 samples.

Results

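Meg3-positive cells were taken from a panobinostat-treated culture of mouse renal progenitors as the cells with 3 or more UMIs (distinct counted molecules) of the long noncoding RNA Meg3. They numbered 1201 of the 2281 panobinostat cells, and of 5135 cells in both libraries of the study. They were set against the 706 panobinostat cells with 0 Meg3 UMIs, here called Meg3-negative, while 374 cells with 1 or 2 UMIs stood in neither class. The count of Meg3 UMIs chose the classes, so the level of Meg3 is a description and no gene was tested against it.

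All cells came from C57Bl/6 mice aged 9 weeks that carry Pax2.rtTA, TetO.Cre and R26.mT/mG. In these mice the Pax2 promoter drives an inducible Cre that switches a membrane reporter to GFP, so GFP marks cells in which that promoter had been active, and their descendants. Cells that grew out of cultured glomeruli over 5 days were sorted for GFP, plated at 80000 per well, starved for 16 h and given either 0.2 µM panobinostat, an inhibitor of histone deacetylases, or DMSO vehicle for 48 h. For each treatment there was 1 library, from 2 mice whose cells are not told apart. Both Meg3 classes therefore carry the same genotype, drug, dose and time, and lie in 1 library. With no replicate there is no spread between samples, no p-value was computed, and every interval below is a 95% interval for counting error only.

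Meg3 is transcribed from the maternal chromosome of the imprinted Dlk1-Dio3 region, where the coding genes Dlk1, Rtl1 and Dio3 are transcribed from the paternal one. Its transcription runs on into a long cluster of small RNAs and further noncoding transcripts, among them Mirg. Which allele is active is set by DNA methylation of control regions upstream of and at the Meg3 promoter, and Meg3 is known as a growth-restraining RNA that is often silenced in tumours.

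Meg3 lies on chromosome 12 from 109541001 to 109571726 in GRCm38, on the plus strand. An annotated promoter of Meg3, and that of Dlk1, the coding gene of the region with the largest ratio between the classes, are shown. Both are 300 bases of the plus strand across an annotated start, from RefSeq on GRCm38.p6, and the capitals mark each CG, the dinucleotide at which mammalian DNA is methylated. The Meg3 sequence is chr12:109540746-109541045 and the Dlk1 sequence is chr12:109452573-109452872.
Meg3: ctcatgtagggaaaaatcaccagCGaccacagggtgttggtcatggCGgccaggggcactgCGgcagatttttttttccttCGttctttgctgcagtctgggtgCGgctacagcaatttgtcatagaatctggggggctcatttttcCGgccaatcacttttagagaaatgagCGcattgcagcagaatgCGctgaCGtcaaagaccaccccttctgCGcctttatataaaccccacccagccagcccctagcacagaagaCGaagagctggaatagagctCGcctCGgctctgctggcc
Dlk1: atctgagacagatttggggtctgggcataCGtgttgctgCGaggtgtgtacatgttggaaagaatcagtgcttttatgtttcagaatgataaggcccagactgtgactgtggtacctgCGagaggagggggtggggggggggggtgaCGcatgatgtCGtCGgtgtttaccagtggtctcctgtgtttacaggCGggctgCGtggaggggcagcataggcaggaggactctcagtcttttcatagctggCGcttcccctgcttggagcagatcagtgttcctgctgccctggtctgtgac
The Meg3 promoter shown holds 13 CG and 53.7% G or C. Of 32851 RefSeq promoters of this length, 37.9% hold as many CG or more. The promoter of another annotated Meg3 start, chr12:109545148-109545447, holds 1 CG, and 94.6% of promoters hold as many or more. Which Meg3 start these cells used was not tested. The Dlk1 promoter holds 9 CG and 55.7% G or C, and 45.8% of promoters hold as many, against a median of 7 CG. These counts describe the sequence alone, since methylation was not measured in these samples.

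The sorted lineage was present in both classes. The GFP transcript was seen in 99.1% of Meg3-positive and 98.2% of Meg3-negative cells, at 7718 and 8010 CPM (UMIs per 1000000 UMIs of a class). Meg3-positive cells were deeper, with a median of 46552 UMIs per cell against 37557 in Meg3-negative cells, and 6.99% against 2.12% of cells lay above the 95th percentile of the library, 78115 UMIs. No doublet caller was run. Each cell was therefore thinned at random to 20000 UMIs, which kept 1185 Meg3-positive and 656 Meg3-negative cells and brought the median number of genes per cell to 4749 and 4726.5, against 6854 and 6223 before. Mitochondrial transcripts made up a median of 6.95% and 7.02% of counts. No cell barcode was shared between the panobinostat and vehicle libraries.

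Meg3 was spread very unevenly over panobinostat cells. The library held 14880 Meg3 UMIs, or 142.8 CPM, against 29 UMIs in 7 of 2854 vehicle cells, or 0.320 CPM, of which 19 lay in 1 cell. Of the panobinostat cells 52.7% were Meg3-positive (exact binomial interval 50.6 to 54.7%), 16.4% held 1 or 2 UMIs and 31.0% held none. In vehicle cells these shares were 0.0701%, 0.175% and 99.8%. The panobinostat share depended on depth: counted after thinning, 20.0% of cells held 3 or more Meg3 UMIs at 10000 UMIs per cell, 36.0% at 20000 and 47.1% at 30000. What part of the low panobinostat counts came from free RNA in the droplets was not tested, since the sort holds no type known to lack Meg3 in that library.

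The counts of single cells ran from 0 to 138 with a median of 3. Among Meg3-positive cells the median was 8 and the 90th percentile 25. Cells with 3 to 9 UMIs numbered 678, cells with 10 to 29 numbered 436, and 87 cells with 30 or more held 25.1% of all Meg3 UMIs. The 229 richest cells, 10% of the library, held 46.2%. Had each cell carried Meg3 at the mean level for its depth, 22 cells with none would be expected, and 706 were seen. The rule's threshold cut through a continuous run of counts, with 152 cells at 2 UMIs just outside it and 144 cells at 3 UMIs just inside.

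**Figure D1:**
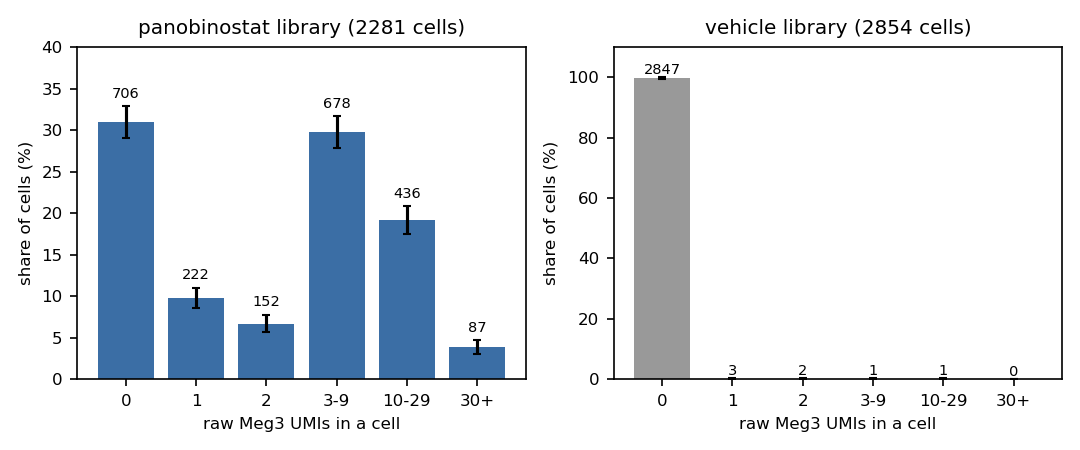
Share of cells by raw Meg3 UMIs per cell in the panobinostat library (left) and the vehicle library (right, on its own axis), with the number of cells above each bar and exact binomial 95% intervals. Panobinostat cells cover the whole range from 0 to 30 or more UMIs, with 706 cells at 0 and 87 at the top, and 2847 of 2854 vehicle cells sit at 0.

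The Meg3 count was related to the depth of a cell. With panobinostat cells split by depth into 5 equal bins, the share of Meg3-positive cells was 35.3%, 45.8%, 54.2%, 59.0% and 68.9% from the shallowest bin to the deepest. After thinning, the share with any Meg3 UMI was 53.8% in the shallowest bin and 68.7% in the deepest, and the rank correlation of Meg3 with depth was 0.08 over 2204 cells, against 0.30 before thinning over 2281. Thinned Meg3 had a variance 7.09 times its mean, against a median of 1.24 and a 90th percentile of 1.91 over 1714 genes of similar mean. It ranked 20 among those genes, behind such clumped transcripts as the iron carrier Lcn2 (62.0) and follistatin, Fst (32.5).

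Few genes differed between the classes. Of 8265 genes at 10 CPM or more in either class, Meg3 left out, 65 were called higher (0.786%) and 29 lower (0.351%) in Meg3-positive cells, 1.14% in all. A call needed a ratio of 1.5-fold or more and a counting interval that excluded equality. At 2-fold the counts were 9 and 4. The log2 ratios of all 8265 genes had a median of -0.01 and 5th and 95th percentiles of -0.24 and 0.28. The secreted growth factor binder Igfbp2 and the actin binder Tagln had the largest ratios, and the interferon-induced gene Ifit3 the smallest. The counts followed the threshold, with 41 higher and 16 lower when cells with 1 or more Meg3 UMIs were used, and 137 and 63 when members had 10 or more.

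Of the 94 genes, 11 higher and 2 lower kept their call under all 14 other choices of depth, class, scaling and cells. They were Igfbp2, Tagln, Pmp22, Lce1f, AI593442, Sparc, Prss23, Lor, Loxl2, Cyp1b1 and Nox4 on the higher side, and Il5ra and Ifit3 on the lower side. Cyp1b1, a cytochrome P450 (log2 ratio 0.81), and Nox4, an oxidase abundant in kidney (0.74), are named only for this and were chosen after their values were seen. With each of the 6 clusters described below left out in turn, a choice made after seeing the data, Sparc lost its call without cluster 0 (0.53) and Lor without cluster 1 (0.55), and 9 and 2 genes were left. Among the 9 were Igfbp2, Tagln, Lce1f, AI593442 and Loxl2, which are leading genes of cluster 4, a small group rich in Meg3-positive cells. Another random seed of the thinning alone kept 47 of the 65 calls and 20 of the 29. In the subset without cells above 5% mitochondrial counts, 90 Meg3-positive and 57 Meg3-negative cells, 11 of the 65 and 6 of the 29 pointed the other way. Among the named genes these were Acta2, Tceal5, Havcr1, Rsad2, Fst and Xirp2, and Rhox5, whose UMIs there were too few for a ratio.

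**Figure D2:**
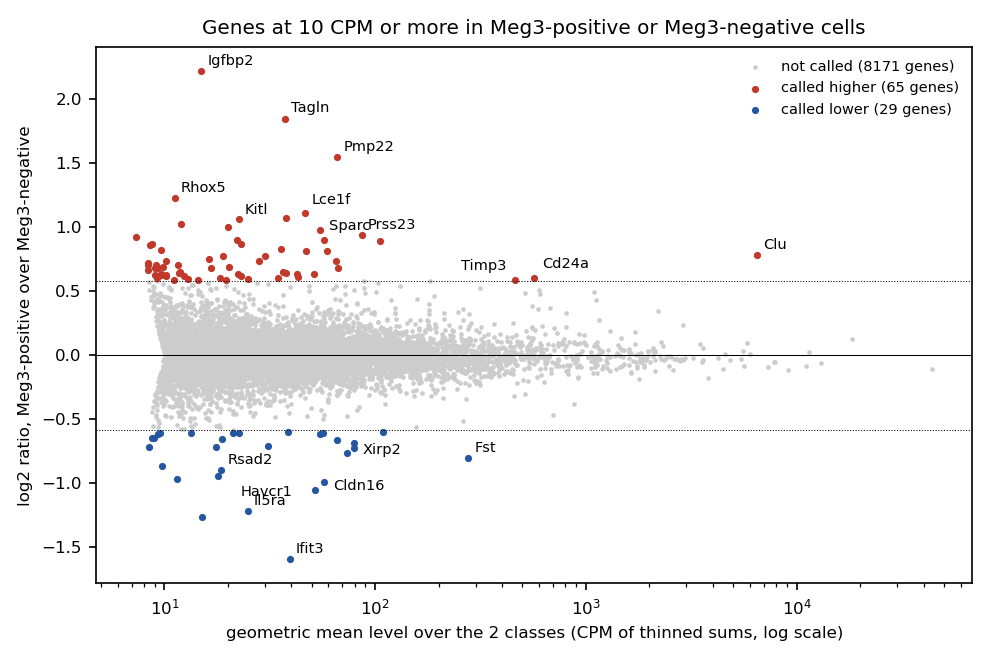
Log2 ratio of Meg3-positive over Meg3-negative cells for the 8265 genes past the floor, against their geometric mean level in CPM of thinned sums (log axis). Dotted lines mark 1.5-fold. The 65 genes called higher are red, the 29 called lower are blue, and most genes lie near 0, from Igfbp2 at 2.22 down to Ifit3 at -1.59.

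Within the Dlk1-Dio3 region, Dlk1 and Mirg stood higher in Meg3-positive cells too, at low levels. Dlk1, which encodes a transmembrane relative of Notch ligands made by many progenitor cells, stood at 9.83 CPM in Meg3-positive, 1.68 CPM in Meg3-negative and 0.0441 CPM in vehicle cells. Its log2 ratio between the classes was 2.55 (1.92 to 3.25), but it stayed under the floor of 10 CPM and was not among the calls. In thinned cells Dlk1 was seen in 10.5% of Meg3-positive cells (8.78 to 12.3%) and 2.90% of Meg3-negative cells (1.75 to 4.49%), against 18.7% and 4.11% unthinned. Dlk1 transcripts lay in few cells: 705 UMIs fell in 285 panobinostat cells, and the 10 richest held 25.7% of them.

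Mirg, the noncoding transcript downstream of Meg3, had 77 raw UMIs in Meg3-positive cells and 1 in Meg3-negative cells. After thinning these were 31 and 1 UMIs, a log2 ratio of 4.10 with a counting interval of 1.52 to 9.45. Dio3, the deiodinase gene at the far end of the region, had 6 and 1 raw UMIs, and no fold is given. Rian and Rtl1 were not analysed here. Genes that flank the region or lie near it did not share the difference. Of 16 genes listed for the region and its flanks, Meg3 among them, 5 others passed the floor, and their log2 ratios were -0.01 for the zinc finger factor Yy1, 0.12 for the tRNA synthetase gene Wars, 0.14 for the phosphatase subunit Ppp2r5c, 0.19 for Evl and 0.23 for the dynein heavy chain Dync1h1.

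Imprinted genes elsewhere showed no common shift. Of 41 listed, 21 passed the floor, with a median log2 ratio of 0.03. The 1 call was Nnat, which encodes neuronatin, a small membrane protein, at 47.7 CPM in Meg3-positive, 26.8 CPM in Meg3-negative and 14.3 CPM in vehicle cells (log2 ratio 0.83, 0.66 to 1.01). Its call was lost when both classes were given one cluster make-up (0.52). Peg3 stood at the other end with a log2 ratio of -0.32, and the kinase inhibitor Cdkn1c at 0.17.

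The largest ratio of a called gene was that of Igfbp2. The gene, whose secreted product binds insulin-like growth factors, stood at 32.3 CPM (30.0 to 34.6) in Meg3-positive cells against 6.94 CPM (5.58 to 8.52) in Meg3-negative cells and 8.46 CPM in vehicle cells, so the Meg3-negative cells lay near the vehicle level. The log2 ratio was 2.22 (1.90 to 2.55). Igfbp2 was seen in 18.99% of thinned Meg3-positive and 9.91% of Meg3-negative cells. The transcript was clumped, with 45.1% and 29.7% of each class's UMIs in the richest 1% of its cells. Its interval leaves out that clumping.

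Of 32 genes of the extracellular matrix and of mesenchymal cells, 18 passed the floor, 3 were called higher and 0 lower, and 15 lay above 0, with a median log2 ratio of 0.34. Sparc, a matrix glycoprotein that binds collagen, stood at 77.2 CPM in Meg3-positive and 39.1 CPM in Meg3-negative cells (log2 ratio 0.98, 0.84 to 1.13). Loxl2, which crosslinks collagen, had a log2 ratio of 0.87, and Timp3, an inhibitor of metalloproteinases, stood at 563.4 and 374.9 CPM (0.59). The call of Timp3 lay at the threshold and was lost in 7 of 14 other settings. Below the threshold stood the basement membrane chains Col4a2 (0.58) and Col4a1 (0.54), fibronectin, Fn1 (0.51), and vimentin, Vim (0.48). The matrix list thus leaned to the higher side without most of its members being called. Beside this and every other list stand all 8265 genes, with 0.786% called higher, 0.351% called lower and a median log2 ratio of -0.01. The lists were chosen with earlier results of these data known, so their counts and medians are a description.

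Other genes called higher encode proteins of varied roles. Pmp22, a small membrane protein of myelin and epithelial junctions, stood at 112.8 CPM in Meg3-positive, 38.6 CPM in Meg3-negative and 9.96 CPM in vehicle cells (log2 ratio 1.55, 1.41 to 1.69). It was seen in 48.0% of thinned Meg3-positive and 24.8% of Meg3-negative cells, which makes it the most widely detected of the 3 genes with the largest ratios. The ATP-gated channel P2rx2 had a log2 ratio of 1.03, the serine protease Prss23 0.94 and the transcript AI593442 1.07. Lor and Lce1f, which encode proteins of the cornified envelope of skin, had log2 ratios of 0.90 and 1.12. Lce1f belongs to a family of near-identical genes, as does the protease inhibitor Ctla2a (0.89), so reads may be split between copies and both values are uncertain. Hspb8, a small heat shock protein, and Smad6, an inhibitor in the TGF-beta pathway, were the single calls of the heat shock and TGF-beta lists at 0.64 and 0.62. Both lost their call with another thinning seed (0.53 and 0.54) and with one cluster make-up (0.52 and 0.56).

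The contractile genes with a call were high in very few cells. Tagln, which encodes the actin-binding transgelin of smooth muscle, stood at 70.6 CPM in Meg3-positive, 19.6 CPM in Meg3-negative and 718.6 CPM in vehicle cells. Its log2 ratio was 1.85 (1.66 to 2.05), yet it was seen in 11.6% of thinned Meg3-positive and 6.25% of Meg3-negative cells, and the richest 1% of cells held 52.1% and 68.9% of its UMIs. Acta2, smooth muscle actin, stood at 11.7 and 7.16 CPM (0.71), and this ratio turned to -0.14 with classes set after thinning and to -0.70 with one cluster make-up. Rhox5, an X-linked homeobox gene with relatives of like sequence, had a log2 ratio of 1.23 that fell to 0.09 without cluster 1, one of the groups of like cells described below. Of 18 contractile genes past the floor of 20 listed, these 2, Tagln and Acta2, were called and the median log2 ratio was 0.04.

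A further set of genes called higher were also leading genes of 1 group of like cells, cluster 1, and stood closer to equality with one cluster make-up. Clu, which encodes the secreted chaperone clusterin and was the most abundant gene called, stood at 8502 CPM in Meg3-positive, 4944 CPM in Meg3-negative and 2257 CPM in vehicle cells (log2 ratio 0.78). Kitl, the ligand of the receptor Kit, stood at 54.7 and 26.0 CPM in the Meg3 classes (1.07). Gata3, a transcription factor of the nephric duct and collecting duct, stood at 28.2 and 14.1 CPM (1.00), and Cd24a, a surface protein used to mark renal progenitors, at 696.6 and 458.7 CPM (0.60). With both classes given one cluster make-up the log2 ratios were 0.30 for Clu, 0.27 for Kitl, 0.15 for Gata3 and 0.20 for Cd24a, all under the threshold. The adaptor protein gene Sh3kbp1 lost its call in the same way (0.90 and 0.35). The clusters were built from gene levels in these same cells. For genes that lead a cluster, some move towards equality is therefore built in, and its cause was not tested.

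Neuronal genes did not divide the classes by the rule. Summed over the list they stood at 1905 CPM in Meg3-positive, 1737 CPM in Meg3-negative and 255.6 CPM in vehicle cells. Of 28 neuronal and neuroendocrine genes 17 passed the floor, 0 were called, and 15 lay above 0, with a median log2 ratio of 0.31. Stmn2, a microtubule regulator of growing axons, stood at 557.1 CPM in Meg3-positive, 562.2 CPM in Meg3-negative and 23.01 CPM in vehicle cells (log2 ratio -0.01, -0.05 to 0.03). Chromogranin A, Chga, stood at 19.7 and 13.3 CPM (0.57) and the microtubule protein Map2 at 78.6 and 54.0 CPM (0.54). Cells without a Meg3 UMI thus held Stmn2 at the level of Meg3-positive cells.

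The Bex and Tceal genes, small X-linked neighbours that are abundant in neurons, all leaned to the higher side. Of 12 listed 8 passed the floor, all 8 lay above 0, and the median log2 ratio was 0.42. Tceal5 was the 1 call, at 62.4 CPM in Meg3-positive, 35.4 CPM in Meg3-negative and 2.01 CPM in vehicle cells (0.82, 0.67 to 0.97), and it was lost with one cluster make-up (0.46). Tceal9 stood at 1305 and 923.4 CPM (0.50) and Bex3 at 1303 and 964.9 CPM (0.43).

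The gene with the smallest ratio was interferon-induced, while most of its list stood near equality. Ifit3, an antiviral protein, stood at 22.7 CPM (20.8 to 24.7) in Meg3-positive and 68.2 CPM (63.8 to 72.8) in Meg3-negative cells, with 97.3 CPM in vehicle cells. The log2 ratio was -1.59 (-1.75 to -1.43), and Ifit3 was seen in 19.1% of thinned Meg3-positive and 35.1% of Meg3-negative cells. Its near copy Ifit3b followed (-1.26), and reads may be split between them. Of 20 interferon genes listed 12 passed the floor, 2 were called lower and 9 lay below 0, with a median of -0.11. The second call was Rsad2, which encodes the antiviral enzyme viperin (13.6 and 25.4 CPM, -0.90), and it was lost at 30000 UMIs per cell (-0.13). Isg15 had a log2 ratio of -0.47, while Cxcl10 (0.07) and Bst2 (0.08) stood near 0.

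A chemokine gene and a marker of kidney injury were called lower. Of 15 NF-kB targets and cytokines past the floor of 23 listed, the chemokine Cxcl2 was the 1 call (13.7 and 22.5 CPM, -0.71), 13 lay below 0 and the median log2 ratio was -0.24. Cxcl2 lost its call with one cluster make-up (-0.52). Havcr1, which encodes kidney injury molecule 1, stood at 36.2 CPM in Meg3-positive, 74.9 CPM in Meg3-negative and 191.1 CPM in vehicle cells (-1.05, -1.18 to -0.92). Among 18 injury and repair genes it was the 1 call lower, against 1 call higher, Clu, and a median of -0.15 over the 17 past the floor.

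Il5ra, which encodes a receptor chain for interleukin 5, stood at 16.3 and 37.8 CPM (-1.21, -1.41 to -1.02), and Fst, which encodes the activin antagonist follistatin, at 209.7 and 365.2 CPM (-0.80). Cldn16, a tight junction protein that carries magnesium in the thick ascending limb, stood at 40.7 CPM in Meg3-positive, 80.9 CPM in Meg3-negative and 9.52 CPM in vehicle cells (-0.99). Without cluster 0 the log2 ratio was 0.26, but both classes then lay under the floor, at 4.38 CPM in Meg3-positive and 3.66 CPM in Meg3-negative cells. Within cluster 0, which Cldn16 leads, it was -0.36 (-0.49 to -0.23). With one cluster make-up it was -0.36 as well. The part of cluster make-up in the Cldn16 difference was not tested. The hair keratin Krt25 (-0.97), the lymphocyte phosphatase gene Ptpn22 (-0.86), Tmem252 (-0.77) and the actin-binding Xirp2 (-0.72) followed. Xirp2 stood at 139.1 CPM in cells with 30 or more Meg3 UMIs, above the 102.1 CPM of Meg3-negative cells. The richest 1% of cells of the Meg3-positive and Meg3-negative classes held 30.8% and 29.7% of its UMIs. The neural adhesion protein gene Ntm (-0.72) and Clca3b (-0.71), which has close relatives, completed the named genes. With one cluster make-up the calls of Fst (-0.55), Krt25 (-0.52), Tmem252 (-0.55), Xirp2 (-0.50), Ntm (-0.43) and Clca3b (-0.24) were lost, and that of Clca3b also with another thinning seed (-0.57). Of 20 oxidative stress genes, all past the floor, the cystine carrier Slc7a11 was the 1 call (15.02 and 23.6 CPM, -0.65), and 19 lay below 0 with a median of -0.10. Slc7a11 kept its call in 7 of the 14 other settings and lost it, among others, with another seed (-0.58), without thinning (-0.34) and with one cluster make-up (-0.34).

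The listed genes of arrest and the lineage factors Pax2 and Pax8 hardly differed between the classes. Cd24a and Gata3, described above, were called higher. Of 24 p53 targets and cyclin-dependent kinase inhibitors past the floor of 26 listed, 0 were called and the median log2 ratio was 0.00. Cdkn1a, which encodes p21, stood at 617.2 CPM in Meg3-positive and 612.6 CPM in Meg3-negative cells (0.01, -0.03 to 0.05), and Cdkn2a, the locus of p16, at 393.7 and 377.4 CPM (0.06). Trp53 had a log2 ratio of -0.19 and its antagonist Mdm2 one of -0.10. The lineage factors Pax2 (25.9 and 25.4 CPM, 0.03) and Pax8 (117.6 and 131.3 CPM, -0.16) were close to level as well.

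Of 17 podocyte genes past the floor 0 were called, and Synpo, an actin-binding protein of podocyte foot processes, had a log2 ratio of 0.28 with an interval of -0.02 to 0.58. Wt1, the podocyte transcription factor, had 15 thinned UMIs in Meg3-positive and 4 in Meg3-negative cells, and Nphs1, which encodes nephrin, had 8 and 4, too few to compare. The 8 histone deacetylase genes past the floor ran from -0.05 to 0.23. Ezh2, the Polycomb methyltransferase, stood at 0.13, and the nuclear noncoding RNAs Malat1 and Neat1 at -0.11 and 0.01. S-phase (17 past the floor), G2/M (6), immediate early (18), apoptosis (19) and respiratory chain (20) lists had 0 calls and medians between -0.07 and 0.02.

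Many of the called genes shifted in steps with the Meg3 count. Cells were grouped by 0, 1 to 2, 3 to 9, 10 to 29 and 30 or more raw Meg3 UMIs, and 28 of the 65 genes called higher increased at each of the 4 steps, as did 393 of all 8265 genes. Of the 29 called lower, 14 decreased at each step, as did 454 of all genes. The group at 0 is the Meg3-negative class, and the groups from 3 UMIs up together are the Meg3-positive class. A lean of the called genes in their called direction was thus partly fixed by the calls, and these counts are a description. Dlk1 stood at 1.68, 3.86, 5.19, 10.97 and 39.7 CPM along these groups, and the share of thinned cells with a Dlk1 UMI went through 2.90%, 4.96%, 6.92%, 11.3% and 33.3%. Dlk1 was thus most frequent in the cells richest in Meg3.

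Igfbp2 stood at 6.94, 9.64, 18.9, 41.6 and 88.5 CPM along the same groups, and Pmp22 at 38.6, 61.7, 96.8, 128.2 and 159.2 CPM. Sparc was level over the lowest groups at 39.1 and 37.9 CPM and then stood at 56.7, 93.9 and 151.1 CPM. Clu stood at 4944, 6240, 8119, 9085 and 8532 CPM, so the group richest in Meg3 did not exceed the one before it. In the other direction, Ifit3 stood at 68.2, 38.2, 28.9, 15.6 and 10.3 CPM, Il5ra at 37.8, 24.4, 20.3, 12.6 and 4.02 CPM and Cldn16 at 80.9, 61.3, 49.2, 32.4 and 16.7 CPM. Kitl broke the order at the top, at 66.7 CPM with 10 to 29 Meg3 UMIs and 33.3 CPM with 30 or more. The median raw depth also grew along the groups, from 37557 UMIs at 0 to 62345 UMIs at 30 or more.

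**Figure D3:**
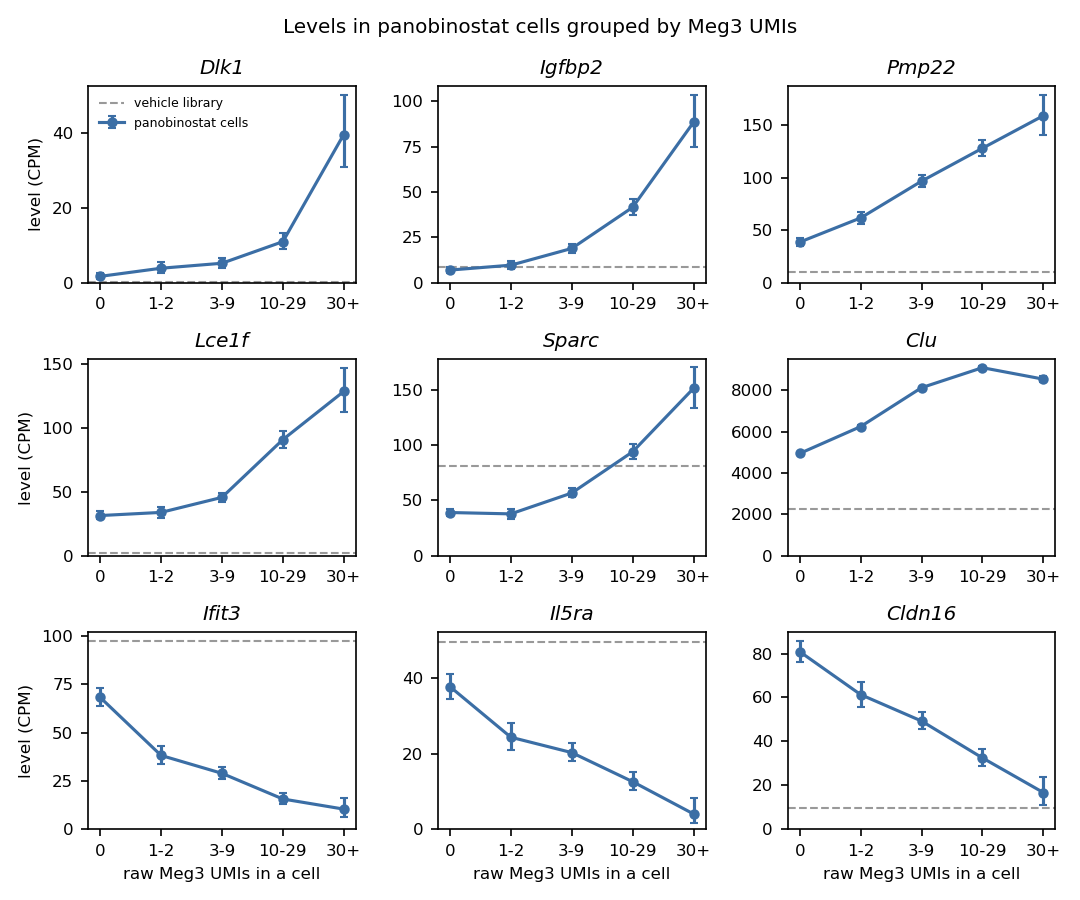
Level in CPM of thinned sums (with exact Poisson 95% intervals) for 9 genes in panobinostat cells grouped by raw Meg3 UMIs, with the vehicle library as a dashed line. Dlk1, Igfbp2, Pmp22 and Lce1f increase over every step, up to 39.7 CPM for Dlk1 and 88.5 CPM for Igfbp2 at 30 or more UMIs, while Ifit3, Il5ra and Cldn16 decrease over every step.

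Meg3-positive cells were found in every group of like cells. The thinned panobinostat cells were clustered on all genes other than Meg3, Rian and Mirg, which gave 6 clusters. They are called here by number and leading genes, since none had 3 markers of a cell type among its 10 leading genes. Cluster 0, led by Cldn16, Il5ra and Sytl2, held 1061 cells, of which 42.9% were Meg3-positive and 38.6% Meg3-negative. Cluster 1, led by Kitl, Gata3, Pmp22 and Clu, held 635 cells with 66.1% positive and 18.7% negative. Cluster 2, led by Sbsn, Pdpn and Vgf, held 241 cells with 56.8% positive and 29.05% negative. The large clusters thus differed in Meg3 while each held both classes.

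The small clusters spanned a wider range. Cluster 3, led by Col4a1 and Col4a2, held 126 cells with 73.0% positive and 18.3% negative. Cluster 4, led by Tagln, Acta1 and Acta2, held 81 cells with 77.8% positive and 9.88% negative, and its cells were the deepest, with a median of 71643 UMIs. Igfbp2 (170.4 CPM against 15.3 CPM in the other clusters), AI593442, Timp3, Loxl2 and Lce1f were also among its leading genes. Without cluster 4 the calls of Acta2 (0.55) and Timp3 (0.43) were lost. Those of Tagln, Igfbp2, AI593442, Loxl2 and Lce1f were kept. Cluster 5, led by Pltp and Evpl, held 60 cells and was the only one with fewer Meg3-positive (30.0%) than Meg3-negative cells (43.3%). Cluster 0 held 38.4% of the Meg3-positive and 62.5% of the Meg3-negative thinned cells, and cluster 1 held 35.4% and 18.1%. A gene that leads cluster 0, such as Cldn16, or cluster 1, such as Kitl, thus had unlike shares of its cells in the classes.

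**Figure D4:**
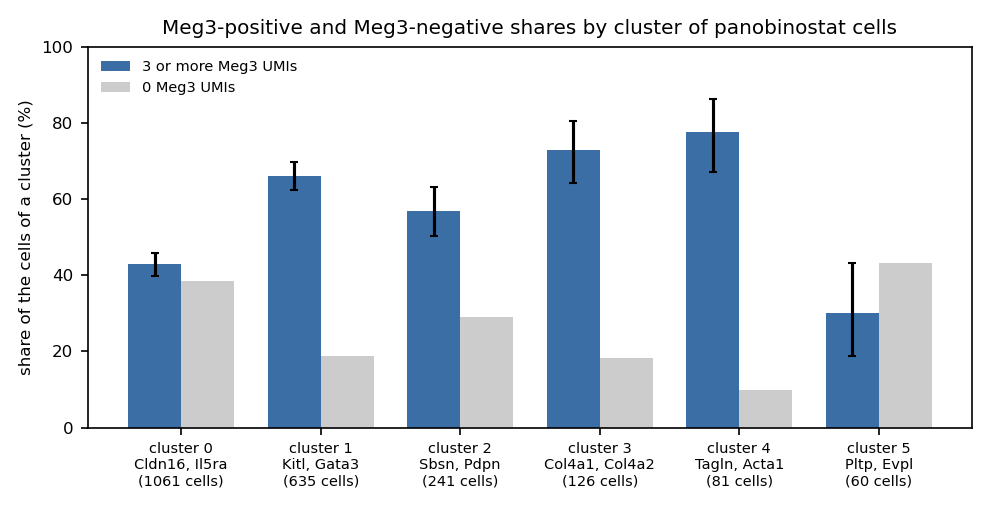
Share of Meg3-positive (blue, with exact binomial 95% intervals) and Meg3-negative cells (grey) in each cluster of thinned panobinostat cells, with the leading genes and the number of cells under each pair of bars. The Meg3-positive share runs from 30.0% in cluster 5 to 77.8% in cluster 4, and it exceeds the Meg3-negative share in clusters 0 to 4.

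Within clusters the called genes kept their direction in part. In the 5 clusters with 15 or more cells of each class, a minimum chosen after the data were seen, 32 of the 65 genes called higher and 4 of the 29 called lower kept their direction, by CPM, in all 5. In the 3 largest clusters alone 48 and 15 did. The genes were called on the sums of these same cells, so some agreement is built in. No share over all genes was taken beside these counts, which are a description. Dlk1 had log2 ratios of 1.95, 1.30 and 2.35 in clusters 0, 1 and 2, Igfbp2 had 2.23, 1.06 and 0.58, and Ifit3 had -1.25, -3.38 and -1.42. Tagln did not hold its sign, at 0.77, -0.73 and 2.57. Pmp22 was at 1.15 and 0.84 in clusters 0 and 1 and at -0.23 in cluster 2.

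When both classes were given one cluster make-up, 31 genes were past 1.5-fold on the higher side and 12 on the lower side, and 25 of the 65 and 8 of the 29 calls were kept. Those kept include Igfbp2 (2.12), Tagln (1.40), Lce1f (1.23), AI593442 (1.00), Pmp22 (0.81), Loxl2 (0.76), Sparc (0.69) and Prss23 (0.63) on the higher side. On the lower side they include Ifit3 (-1.38), Ifit3b (-0.97), Il5ra (-0.71) and Havcr1 (-0.64). Dlk1, under the floor, had a log2 ratio of 2.24. The clusters were built from gene levels in these cells, so ratios of their leading genes move towards equality partly by construction. Cluster 4 held only 8 Meg3-negative cells. With one cluster make-up, the Meg3-negative levels of its leading genes, such as Tagln, Acta2 and Igfbp2, thus rest partly on these few cells. With one depth make-up 55 and 25 calls were kept, and without the cells above the 95th percentile of depth 58 and 24.

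**Figure D5:**
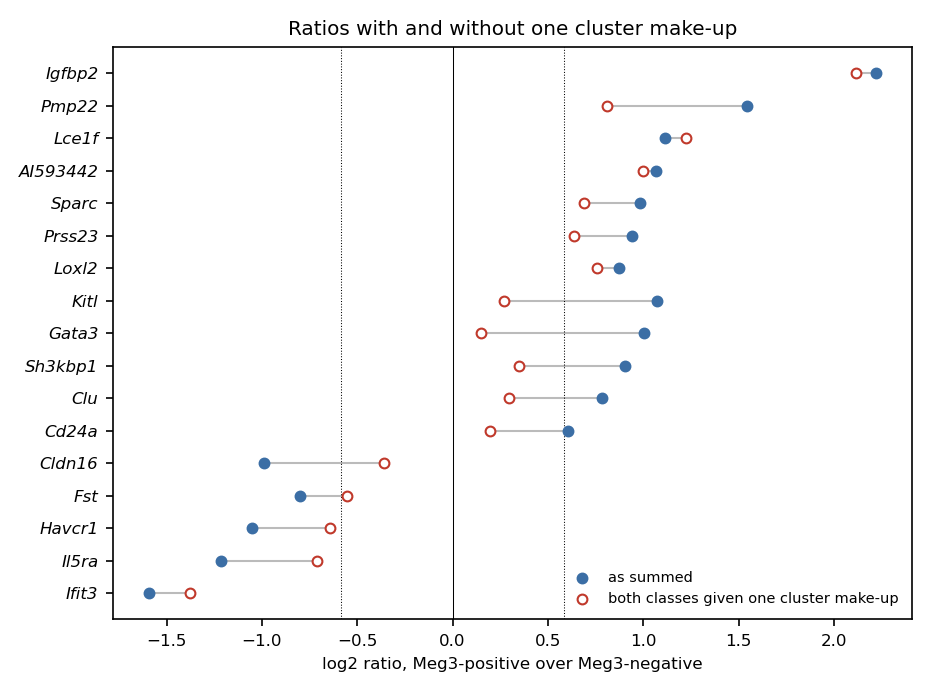
Log2 ratio of Meg3-positive over Meg3-negative cells for 17 of the called genes, as summed (filled) and with both classes given one cluster make-up (open), dotted lines marking 1.5-fold. Igfbp2, Lce1f and Ifit3 hardly move, whereas Kitl, Gata3, Clu, Cd24a and Cldn16 fall inside the lines.

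Markers of other cell types were compared as sums. Summed over the listed markers, endothelial genes stood at 79.5 CPM in Meg3-positive and 65.2 CPM in Meg3-negative cells, with Cdh5, Emcn and Tek at 0 in the Meg3-negative cells. Leukocyte markers stood at 69.9 and 63.6 CPM, fibroblast markers at 7.05 and 4.42 CPM with Col3a1 at 0 in Meg3-positive cells, and mesangial and smooth muscle markers at 20.5 and 14.3 CPM. Proximal tubule markers stood at 16.8 and 14.9 CPM. The sums that differed most were those of the loop of Henle and distal tubule (43.5 and 82.7 CPM, of which Cldn16 made up 40.7 and 80.9, with Umod at 0 in both) and of the collecting duct (37.6 and 22.5 CPM, of which Gata3 made up 28.2 and 14.1, with Aqp2 at 0 in Meg3-positive cells). Podocyte markers stood at 592.2 and 534.2 CPM and parietal epithelial and progenitor markers at 5337 and 4523 CPM. Of the 8 podocyte markers measured only 2 passed the floor. Synpo made up 12.4 and 10.2 CPM of the sums, Wt1 0.63 and 0.30 CPM and Nphs1 0.34 and 0.30 CPM. Most of each podocyte sum came from the other marker past the floor, so it mainly describes a single transcript. The part of other cell types in the called genes was not tested beyond these sums.

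Over 2204 thinned panobinostat cells no gene followed Meg3 closely. Among 6865 genes seen in at least 25% of cells, the highest rank correlations with Meg3 were those of Clu (0.25), Tceal9 (0.23), Prss23 (0.22), Bex3 (0.22) and Pmp22 (0.22). The lowest were Cldn16 (-0.18) and Ifit3 (-0.18), and 1 in 100 genes lay below -0.10 and 1 in 100 above 0.11. These cells share 1 library and 1 depth, and correlations of this size in sparse counts are given as a description only.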

How the data were processed

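Droplet 3′ libraries of mouse cells were deposited by the authors as 1 matrix of raw UMI counts per gene and cell, with no normalization. Cell Ranger 3.0.1 and the build mm10 are named, per the submitters' processing notes, and the sources used here name no gene annotation. In the matrix the lowest number of genes in a cell is 1798, the highest mitochondrial share is 9.98% and every gene is found in 3 cells or more. The filters behind this are not stated. Cells were given to libraries by their barcode endings, CTRL being read as vehicle and PANO as panobinostat, and 0 columns were left unused. Of 19394 symbols, 98.6% matched GENCODE M21 on GRCm38.

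Cells were thinned without replacement to 20000 UMIs, which left out 16 Meg3-positive and 50 Meg3-negative cells. Counts were summed per class and scaled to CPM, and ratios have exact conditional binomial (Clopper-Pearson) intervals. A class at 0 was set to 3 counts, and no ratio was taken where the other class had 3 counts or fewer or where this turned the direction. No test was run, because cells of 1 library are not replicates, and no doublet caller was used. Called genes reach 10 CPM in either class, differ by 1.5-fold or more and have an interval that excludes equality. The comparison was tested on simulated data, drawn with the same mean levels for every cell of a class. Clumped transcripts and clusters were absent there, so their effect on the calls was not tested by it.

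Named genes were 14 called genes at each end of the ratios, provided that 5% or more of cells showed them in the class where they are higher. To these came up to 3 called members of each of 38 lists, the 5 genes most correlated with Meg3, and a fixed set of region, lineage, cell cycle and noncoding genes. Unnamed, ribosomal and mitochondrial genes were left out. The members and the lists were chosen with earlier results of these data known. Meg3 is left out of every list's counts and median.

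For clusters, counts were scaled to 10000 and log-transformed, and 2000 variable genes gave 30 components, 15 neighbours and, with leidenalg 0.10.2 in scanpy 1.11.5, resolution 0.5. One cluster or depth make-up means a mean over clusters, or over 5 depth bins, with the same weights in both classes, judged by size alone. Alternatives also covered other depths, seeds, thresholds, floors and folds, scaling by DESeq2 1.42.0 size factors or by edgeR 4.0.16 TMM factors, and other choices of cells. Python 3.11.15, numpy 2.4.6, scipy 1.17.1, matplotlib 3.10.9 and R 4.3.3 were used.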

Additional observations from a re-analysis of the deposited data

How the results depend on the processing

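No paired analysis was possible because both classes lie in 1 library and no test was run. Against 65 genes higher and 29 lower, there were 41 and 16 with members of 1 or more Meg3 UMIs, 137 and 63 with 10 or more, 31 and 12 with one cluster make-up, and 293 and 246 without cells above 5% mitochondrial counts, where 90 and 57 cells remained. A floor of 1 CPM gave 354 and 140, a floor of 50 CPM 18 and 11, a log2 threshold of 0.32 gave 309 and 190, and 2-fold 9 and 4. Without cluster 0, an alternative chosen after seeing the data as were the other clusters left out, 57 genes were lower. The counts stayed within 1.5 times in the other settings run, namely 10000 and 30000 UMIs, another seed, no thinning, classes set after thinning, TMM and DESeq2 factors, median centring, one depth make-up, leaving out the deepest cells and leaving out each cluster from 1 to 5. The share of cells with 3 or more Meg3 UMIs was 20.0% after thinning to 10000 UMIs, 47.1% at 30000 and 35.8% at 20000 with another seed.

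The direction turned, without cells above 5% mitochondrial counts, for 11 of the 65 and 6 of the 29 genes, of which the named ones with a ratio were Havcr1 (0.046), Rsad2 (0.89), Fst (1.21), Xirp2 (1.32), Acta2 (-0.55) and Tceal5 (-0.14). It also turned for Cldn16 without cluster 0 (0.26), for Acta2 with classes set after thinning (-0.14) and with one cluster make-up (-0.70), and for the median log2 ratio of Cytosolic ribosomal protein genes without cluster 1 (0.00512). The cause was not tested. Of the other values of single genes 821 moved little and 265 moved past their interval, and of list medians 790 and 44.

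Depth limits Dlk1, Mirg, Dio3, Wt1 and Nphs1, whose values rest on few UMIs. The intervals leave out variation between cells, cultures, mice and libraries. They also leave out the clumping of transcripts such as Tagln, Acta2, Rhox5 and Rsad2 in few cells.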

Other observations

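Other genes called higher in Meg3-positive cells, chosen for mention after their values were seen, include 3 further fibrillar or fibril-associated collagen genes and 3 peptide hormone genes. Col11a1 stood at 11.5 CPM in Meg3-positive, 6.33 CPM in Meg3-negative and 0.683 CPM in vehicle cells (log2 ratio 0.86, 0.51 to 1.24), Col16a1 at 12.6, 8.16 and 4.19 CPM (0.63) and Col5a3 at 11.4, 7.47 and 0.0441 CPM (0.60). The gene for calcitonin and its related peptide, Calca, stood at 45.8 CPM in Meg3-positive, 29.2 CPM in Meg3-negative and 1.37 CPM in vehicle cells (0.65). Galanin, Gal, stood at 27.9, 18.0 and 0.485 CPM (0.63), and the natriuretic peptide gene Nppb at 28.6, 18.7 and 7.84 CPM (0.62). Apart from Col11a1 these genes lay near the 1.5-fold threshold, at log2 ratios of 0.60 to 0.65. With one cluster make-up Col11a1 (0.79), Col5a3 (0.68) and Gal (0.67) stayed past it while Col16a1 (0.57), Calca (0.58) and Nppb (0.38) did not.

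The long noncoding RNA Xist, which silences one X chromosome in female cells and was also chosen after its values were seen, was seen in 97.3% of Meg3-positive and 95.9% of Meg3-negative thinned cells, at 363.5 and 351.4 CPM (log2 ratio 0.05, -0.003 to 0.10).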
